A study of Mus musculus with 6 samples.

Results

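Chromatin accessibility in NMuMG cells, an established epithelial line from normal mouse mammary gland, was compared between cells given the vehicle DMSO and cells given BRM014 for 30 h. BRM014 blocks the ATPases that drive SWI/SNF chromatin remodellers. The comparison covers 4 of the 6 samples of the series, 2 biological replicates of wild-type NMuMG cells per group, and asks which accessible regions were no longer called, still called or newly called after 30 h. The DMSO cells carry no time in their treatment label, and only their peak list's name gives 30 h. The labels' extraction text also describes TGFβ treatment, which no sample of these groups carries. Whether the line is clonal and the dose of BRM014 are not given in the sources used here, and the epithelial identity of the cells was not checked against marker genes, since the lists name no gene.

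ATAC-seq uses the Tn5 transposase to insert adapters into DNA that is not covered by nucleosomes, so that reads pile up over promoters, enhancers and other open sites. SWI/SNF complexes slide or evict nucleosomes with energy from ATP hydrolysis by BRG1 (Smarca4) or BRM (Smarca2), and are known mainly for keeping enhancers open. A peak list records only the entries that passed the thresholds used to make it. The lowest score in both lists is 540, which is also what IDR, a program that compares peaks between replicates, writes at a commonly used limit, while the lowest -log10 q is 0.303 in DMSO and 0.326 at 30 h. No source used here names IDR, but the lists may hold only entries that recurred in both replicates, and lost and new would then also depend on agreement between replicates. This was not tested. A region that is missing from a list was not called there, which is not the same as closed.

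The authors made 1 list per group from both replicates together, so no replicate spread can be given and no test between treatments was made. Entries that overlapped within a list were merged into 1 region. The DMSO list gave 42310 regions covering 30.2 Mb and the 30 h list 38422 regions covering 25.1 Mb. Their read depth is not given. The lowest local background that could be recovered from the lists, taken here as a measure of depth, was 3.37 in DMSO and 2.72 at 30 h, which puts the 30 h list at 80.7% of the DMSO depth. Intervals are 95% Wilson intervals, which reflect counting error alone and take each region as independent. Positions are on the mouse build mm9, and regions were not assigned to genes because the gene table used here is of another build.

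A DMSO region is called lost where no 30 h region overlapped it by at least 1 bp, kept where one did, and a 30 h region new where no DMSO region overlapped it. Of the DMSO regions 11027 were lost, 26.1% (25.6 to 26.5%), and 31283 were kept. Of the 30 h regions 6894 were new, 17.9% (17.6 to 18.3%), and 31528 were shared. By position few regions lay near the 1 bp limit, which says nothing on how far the classes differ in strength. Only 6 kept regions overlapped a 30 h region by 100 bp or less, and 78 lost regions had a 30 h region within 100 bp, the closest at 20 bp.

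Counted in base pairs, the 2 lists shared 20.9 Mb, which was 69.3% of the DMSO coverage, 83.3% of the 30 h coverage and 60.8% of their union. The DMSO list held 9.28 Mb that was not covered at 30 h. Lost regions made up 6.18 Mb of this (66.6%), and the remaining 3.10 Mb (33.4%) lay inside kept regions, outside their 30 h counterparts. In the other direction 4.18 Mb was covered only at 30 h, of which new regions made up 3.01 Mb (71.9%) and the outer parts of shared regions 1.18 Mb (28.1%). Kept DMSO regions thus held 2.63 times as many base pairs outside their counterparts as shared 30 h regions did. The part of the lower 30 h depth in these differences was not tested.

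Lost regions were narrower and weaker than kept ones. Their width had a quartile range of 402 to 690 bp, against 546 to 950 bp for kept regions. The authors' fold enrichment, column 7 of the list, is the summit pileup over local background. It ran from 7.59 to 13.3 between the quartiles of lost regions and from 10.3 to 18.5 for kept regions. The median -log10 q was 41.9 in lost and 128 in kept regions. A single summit was found in 66.6% of lost and 42.8% of kept regions, and 3 or more summits in 6.51% and 23.7%. The highest score of the lists, 1000, was reached by 38.1% of lost and 81.9% of kept regions.

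New regions were narrower still. Their median width was 404 bp with a quartile range of 296 to 527 bp, and their fold enrichment had quartiles of 7.64 and 11.8. The median -log10 q was 30.4, against 86.6 for shared 30 h regions. Of the new regions 77.0% had 1 summit, 3.68% had 3 or more, and 16.1% had the score 1000, against 46.4%, 22.0% and 72.5% of shared regions. Spacing separated the classes least. The median gap to the nearest region of the same list was 8048 bp for lost and 7492 bp for kept regions, and 10108.5 bp for new and 8204.5 bp for shared regions.

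**Figure D1:**
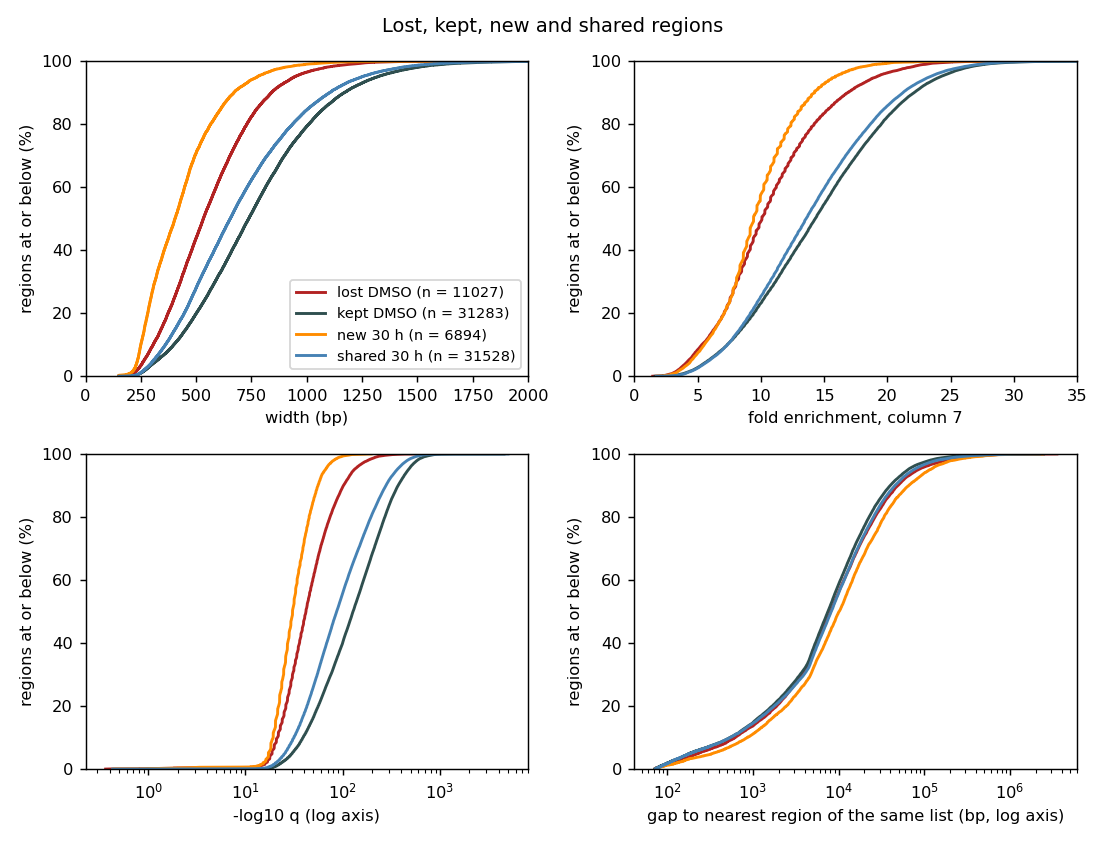
Cumulative share of lost, kept, new and shared regions (y axis, percent) by width, fold enrichment, -log10 q and gap to the nearest region of the same list (x axes, the last 2 on a log scale; the width and fold enrichment axes stop at 2000 bp and 35). New regions lie farthest to the left on width and -log10 q, followed by lost regions, while the 4 curves of the gap lie close together.

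Both lists were also divided by score. What the score measures is not given in the sources used here, and it may stand for agreement between replicates rather than strength. Among DMSO regions with a score below 600, 64.7% were lost (62.3 to 67.1%), and the share was lower in each next bin, with 60.9%, 57.2%, 52.8% and 45.6% in steps of 100 up to just below 1000, and 14.1% at 1000 (13.7 to 14.5%). The shares of new 30 h regions over the same bins were 56.0%, 51.7%, 44.3%, 35.1%, 25.3% and 4.62%.

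Width and summit number overlap as measures, since a second summit needs room. In the first width quartile of the DMSO list (150 to 492 bp) 44.3% of those with 1 summit were lost and 39.2% of those with 2. In the second quartile (493 to 677 bp) the shares were 31.6% with 1 summit and 33.4% with 2, and in the third (678 to 888 bp) 19.6%, 20.9% and 18.5% with 1, 2 and 3 summits. The intervals of these last 3 shares overlap each other. In the widest quartile (889 to 2580 bp) 10.7% of regions with 1 summit were lost (8.12 to 14.1%), 9.26% with 2, 8.21% with 3 and 4.38% with 4 or more (3.65 to 5.24%). Within a width quartile the share lost thus differed by a few percentage points between summit numbers, whereas the width quartiles spanned 44.0% to 7.71%. Strength was not held equal in this cross. In the widest quartile the median -log10 q was 251 with 1 summit and 161 with 4 or more. Within bins of expected pileup, given below, the shares lost also parted by summit number. For new 30 h regions the same cross gave 40.2% new with 1 summit and 48.9% with 2 in the narrowest quartile, and 3.35% with 1 summit and 1.24% with 4 or more in the widest.

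Width also separated regions within quartiles of fold enrichment. Neither fold enrichment nor pileup was held equal inside a quartile, as the lowest ran from 1.45 to 9.26 and the highest from 17.4 to 54.6. In the lowest quartile of fold enrichment 50.2% of the narrowest and 16.8% of the widest DMSO regions were lost. In the highest quartile of fold enrichment these shares were 16.8% (14.0 to 20.1%) and 2.96% (2.43 to 3.59%). A narrow region of the highest quartile of fold enrichment was therefore lost as often as a wide region of the lowest.

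Because the 30 h list was shallower, each DMSO region was also given an expected summit pileup, which is its own pileup times 80.7%. The share lost was 72.4% below an expected pileup of 32, 50.8% from 32 to 64, 27.0% from 64 to 128, 7.23% from 128 to 256 and 1.10% from 256 to 512 (0.863 to 1.39%). Above 512 none of 836 regions was lost, which allows a share of up to 0.457%. Of the lost regions 81.3% had an expected pileup of at least 34, the 5th percentile of the pileups that were called at 30 h, and 16.0% had one of at least 97, the 30 h median. Among all DMSO regions at or above that median 7.88% were lost (7.54 to 8.24%). How far depth accounts for the losses was not tested. New 30 h regions followed the same course, with 66.9% of regions below a pileup of 32 new, 42.0% from 32 to 64, 13.1% from 64 to 128, 1.68% from 128 to 256 and 1 of 4894 from 256 to 512.

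At equal expected pileup an order over all 4 width quartiles was seen only from 64 upwards. Below 32 the narrowest and widest quartiles lost 71.6% and 74.6%, with overlapping intervals. From 32 to 64 the widest quartile stood apart, with 329 of 822 lost (36.7 to 43.4%) against 51.0 to 52.6% in the others. From 64 to 128 the narrowest and widest lost 36.2% (34.5 to 37.9%) and 14.5% (13.1 to 16.0%), and from 128 to 256 17.4% (15.5 to 19.4%) and 2.42% (1.98 to 2.95%). By summit number an order over all 4 classes was already seen from 32 to 64, with 53.1%, 49.1%, 40.6% and 27.8% lost. From 64 to 128 the share lost was 33.3% with 1 summit, 24.3% with 2, 15.8% with 3 and 7.17% with 4 or more.

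**Figure D2:**
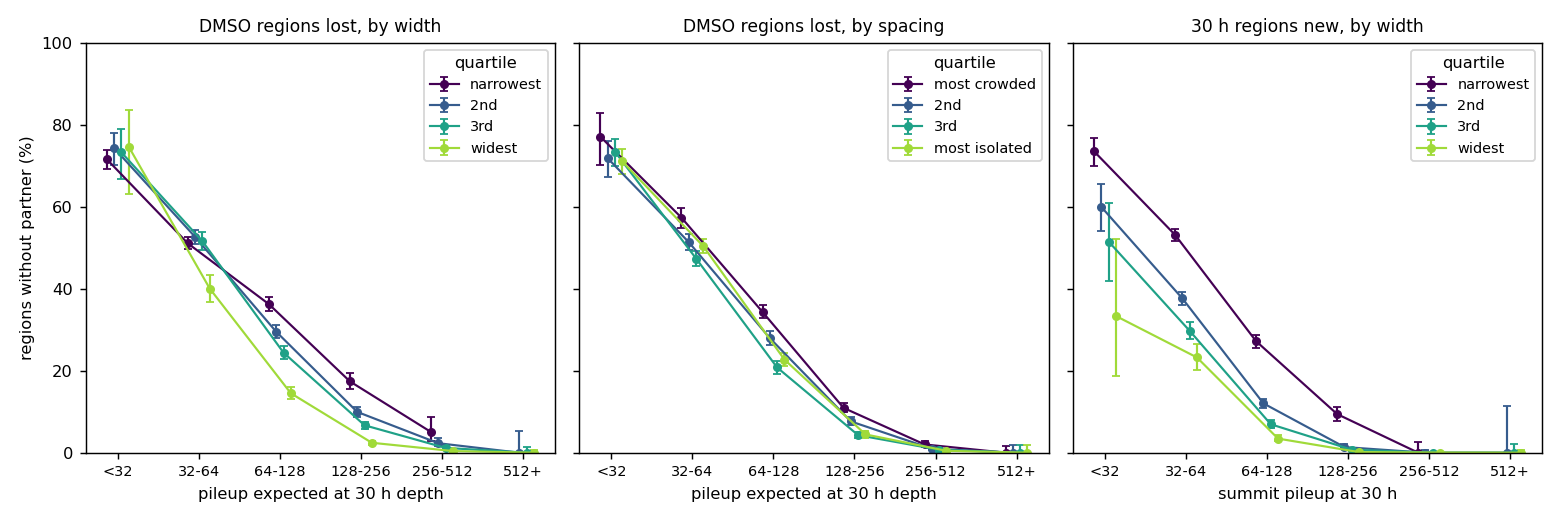
Share of DMSO regions lost by width quartile (left) and by quartile of the gap to the nearest DMSO region (middle), and share of 30 h regions new by width quartile (right), in percent with 95% Wilson intervals, by summit pileup (x axis, DMSO pileups scaled to the 30 h depth). Width quartiles part from a pileup of 64 upwards on the left, where 36.2% of the narrowest and 14.5% of the widest regions were lost between 64 and 128.

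Among the 6853 DMSO regions with an expected pileup of at least 256, 66 were lost. All of these 66 had the score 1000, and they lay on 18 chromosomes. Their width was 692 bp at the median, against 896 bp for all 6853, their median fold enrichment 12.1 against 17.7, and 65.2% of them had a single summit against 31.1%. A 30 h region stood within 2 kb of 25 of them, while 3 had none within 100 kb.

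The lost region with the highest -log10 q, 586, lay on chromosome 3 from 137575846 to 137576505. It was 660 bp wide with 1 summit, a fold enrichment of 30.3 and a pileup of 541, for an expected 437 at the 30 h depth, and the nearest 30 h region was 4610 bp away. Second came chromosome 2 from 50705330 to 50706141, with 2 summits, a -log10 q of 562 and an expected pileup of 475, 24432 bp from the nearest 30 h region. The region on chromosome 2 from 180077811 to 180078740 had a -log10 q of 415 at a fold enrichment of only 13.5, and a 30 h region 2943 bp away. Chromosome 1 from 114844117 to 114844998 held a region with 2 summits, a -log10 q of 412 and no 30 h region within 198490 bp. The highest fold enrichment of a lost region, 31.3, was on chromosome 3 from 21484483 to 21485216, with 1 summit in 734 bp, an expected pileup of 317 and the nearest 30 h region 175586 bp away. That region was also the third by -log10 q, at 435. The fourth by fold enrichment, on chromosome 1 from 96701407 to 96701866 at 29.7, was 268988 bp from the nearest 30 h region.

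The widest single lost regions included several of low pileup. The widest of all, on chromosome 15 from 3208998 to 3210619, was 1622 bp wide with 6 summits, yet its fold enrichment was 9.10 and its pileup 63. Another on chromosome 9 from 121668490 to 121670075 had 5 summits and a fold enrichment of 5.88, and one on chromosome 4 from 123019590 to 123020974 had 6 summits at 8.19. Some wide regions were also strong. The region on chromosome X from 10674464 to 10676054, 1591 bp wide with 3 summits, had a fold enrichment of 15.1 and a pileup of 157. The one on chromosome 5 from 12219280 to 12220543, with 5 summits, had a fold enrichment of 19.6, a pileup of 177 and no 30 h region within 138689 bp.

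Among new regions the highest -log10 q, 196, belonged to a region on chromosome 2 from 139926309 to 139927257. It was 949 bp wide with 3 summits, had a pileup of 290 and was the only new region above 256, with a DMSO region 2380 bp away. The next, at 176, was on chromosome 15 from 13314560 to 13314981, and also had the highest fold enrichment of a new region, 28.8. Chromosome 15 from 99918508 to 99918882 had a new region with 1 summit and a -log10 q of 172, 1143 bp from a DMSO region. On chromosome 2 from 30206588 to 30207126 the -log10 q was 171, and on chromosome 7 from 103284615 to 103285469 it was 170 with 3 summits. The new regions with the most summits were wide and low: chromosome 19 from 36184462 to 36186042 had 6 summits in 1581 bp at a fold enrichment of 6.67, chromosome 5 from 53603824 to 53605444 had 6 in 1621 bp at 7.78, and chromosome 2 from 75507224 to 75508909 had 6 in 1686 bp at 4.43.

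Of the kept DMSO regions 30463 (97.4%) overlapped exactly 1 region at 30 h that overlapped no other DMSO region. These pairs show how a kept region compared between the lists. The median width was 735 bp in DMSO and 656 bp at 30 h, and the median ratio of the widths was 0.951, with quartiles of 0.830 and 1.02. In 20472 pairs (67.2%) the 30 h region was the narrower, in 9767 (32.1%) the wider, and in 224 they were equal. Whether the lower depth of the 30 h list accounts for its narrower regions was not tested. The 30 h edges lay inwards by a median of 10 bp on the left and 11 bp on the right, so neither side was favoured. Both edges lay inwards in 39.2% of pairs, both outwards in 12.9%, and 37.5% were shifted the same way at both edges. The highest summits were 10 bp apart at the median and within 50 bp in 92.0% of pairs. Where both lists had 1 summit, none of 10758 pairs had summits over 200 bp apart.

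The pairs were also divided by their DMSO width. In the narrowest quartile of DMSO widths the median ratio was 1.01 and 46.3% were narrower at 30 h. The other quartiles had medians of 0.938, 0.925 and 0.948, with 68.1%, 74.0% and 73.5% narrower. Ranked by expected pileup the share narrower at 30 h was 38.0% below 32 and 75.3% above 512. These classes were cut on the DMSO values that also enter the ratio, so nothing is read from the order of the lowest classes. Above 512, where all regions were kept, the median ratio was 0.961 with quartiles of 0.880 and 0.999.

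**Figure D3:**
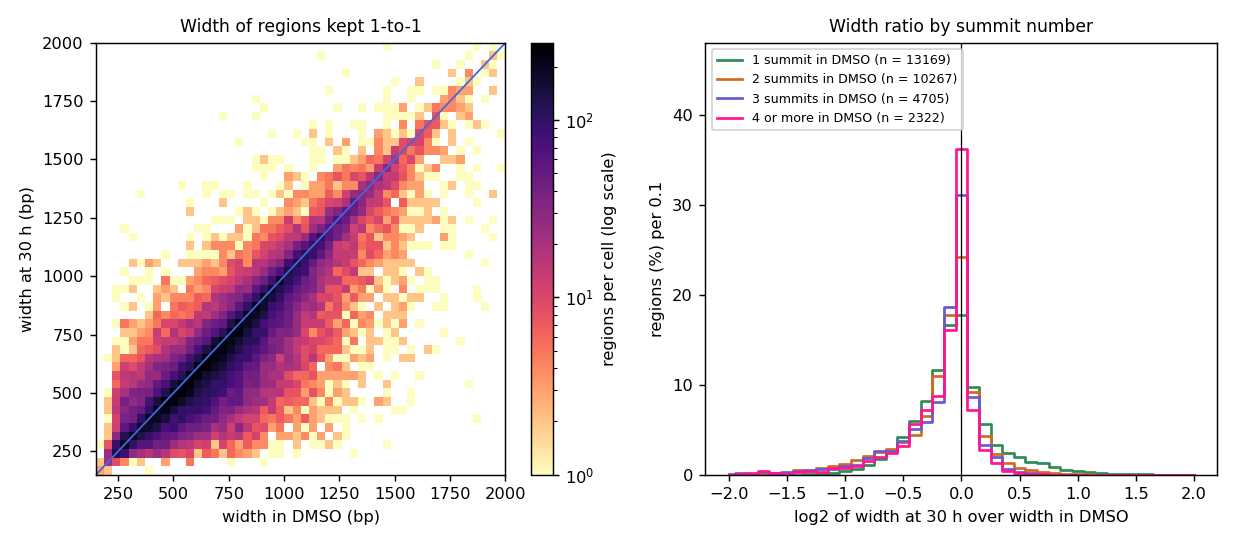
Left, width of 30463 kept regions in DMSO (x axis, bp) and at 30 h (y axis, bp), with the line of equal width and colour for the number of regions per cell on a log scale; axes stop at 2000 bp, which leaves out 28 regions. Right, share of these regions (y axis, percent per 0.1) by log2 of the width ratio (x axis) and DMSO summit number. More regions lie below the line than above it, 67.2% against 32.1%.

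A 30 h width more than 1.5-fold below the DMSO width was found in 2829 pairs (9.29%) and one more than 1.5-fold above it in 768 (2.52%). The narrower pairs had a median width of 807 bp in DMSO and 436 bp at 30 h. Fewer summits at 30 h were found in 67.8% of them, where the mean number was 1.22. The wider pairs had median widths of 359.5 bp in DMSO and 646.5 bp at 30 h, a mean summit number of 1.17 and 2.01, and more summits at 30 h in 65.4%. Over all pairs the summit number was the same in 65.0%, lower at 30 h in 19.1% and higher in 16.0%. By DMSO summit number, it was lower at 30 h in 27.5% of pairs with 2 summits, 39.2% with 3 and 49.0% with 4 or more, and higher in 18.3% of pairs with 1, 15.1% with 2, 13.8% with 3 and 10.9% with 4 or more. These classes were cut on the DMSO number that enters the comparison, so nothing is read from their order.

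The most narrowed pairs with a score of 1000 in both lists kept the part around 1 summit. On chromosome 15 a region from 97661225 to 97663110 with 5 summits was left at 30 h as 97662671 to 97663067 with 1, 21.0% of its width, and the highest summits were 9 bp apart. On chromosome 6 the region from 139540421 to 139541854 was 1434 bp wide with 4 summits in DMSO and 374 bp with 1 summit at 30 h. On chromosome 16 the region from 64758222 to 64759505 went with a 30 h region of 357 bp, 27.8% of its width, with a -log10 q of 306 in DMSO and 77.4 at 30 h. In the region on chromosome 3 from 90418585 to 90419637 the highest summits were 492 bp apart.

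The most widened pairs had more summits at 30 h, and their highest summits were at most 6 bp apart. On chromosome 3 the region from 87942212 to 87942494, 283 bp with 1 summit, stood beside a 30 h width of 1003 bp with 3 summits, 354% of the DMSO width. The region on chromosome 14 from 22367238 to 22367553 measured 316 bp in DMSO and 1039 bp at 30 h. On chromosome 1 the region from 75215696 to 75216046 had 1 summit in DMSO and 4 at 30 h, and on chromosome 10 that from 7393539 to 7393809 had 1 and 2.

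Splitting and joining were rare. Of the kept DMSO regions 441 (1.41%) overlapped 2 or more 30 h regions, and 3 of them overlapped 3. Their width was 1225 bp at the median with a mean of 3.19 summits, and the gaps opened between their 30 h parts had a median of 108 bp. Conversely 199 of the shared 30 h regions (0.631%) overlapped 2 DMSO regions, across gaps with a median of 95 bp. The split region with the highest -log10 q, 801, was on chromosome 7 from 140984769 to 140986254. At 30 h it appeared as a part of 1157 bp with a -log10 q of 595 and a second of 196 bp with one of 27.0. On chromosome 1 the region from 107075351 to 107076436, with a -log10 q of 754 in DMSO, appeared as parts of 398 and 580 bp with -log10 q of 33.5 and 182. Chromosome 9 from 85735552 to 85737668 held a region of 7 summits that appeared as 3 parts of 315, 775 and 814 bp. The strongest joined region, on chromosome 11 from 93856182 to 93857721, had a -log10 q of 590 at 30 h and covered DMSO regions of 805 and 699 bp.

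The pileups of kept regions were compared with those expected from depth, on the assumption that the lowest background scales with depth; another scale would move all ratios by 1 factor. Only the 16288 pairs with an expected pileup of at least 128 were used, where 4.80% of DMSO regions were lost. The median ratio of found to expected pileup was 0.919, but the spread was wide, with 5th and 95th percentiles of 0.330 and 1.33. In 2344 pairs (14.4%, 13.9 to 14.9%) the 30 h pileup was below 0.5 of that expected, and in 259 (1.59%) above 1.5. The pairs were chosen on the DMSO pileup that also enters the ratio, so ratios below 1 can come partly from the choice. Over kept pairs of lower expected pileup the median ratio was 1.53 below 32, 1.22 from 32 to 64 and 0.973 from 64 to 128. Nothing is therefore read from the excess of low over high ratios. The counts that follow carry the same limit. Lost regions and pairs below 0.5 together made up 18.1% of the 17649 DMSO regions at this strength (17.5 to 18.7%). For each such region lost, 2.77 stayed in the list below 0.5 of the expected pileup.

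Pairs below 0.5 had a median -log10 q of 237 in DMSO and 58.7 at 30 h, and a median width of 771.5 and 598.5 bp. Their DMSO fold enrichment, 18.3 at the median, was above the 16.3 of the other pairs. By summit number the share below 0.5 was 20.4% with 1 summit (19.4 to 21.5%), 14.8% with 2, 8.67% with 3 and 3.35% with 4 or more (2.58 to 4.33%). By width it was 9.43% and 9.48% in the narrowest and widest quartiles and 20.3% and 19.0% in those between. These shares count kept pairs alone, and regions that were lost are left out. In the bin starting at an expected pileup of 128 the share lost was 17.4%, 9.94%, 6.69% and 2.42% from narrowest to widest. No order by width is therefore read from the shares below 0.5. By gap the share below 0.5 ran from 12.4% in the most crowded quartile (11.5 to 13.4%) to 15.6% in the second (14.5 to 16.7%). In the same bin these gap quartiles lost 10.9% and 7.63%, so no order by gap is read either.

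The lowest ratio among pairs with an expected pileup of at least 256, chosen after the values were seen, was on chromosome 7 from 107579216 to 107580127. This region had a pileup of 425 in DMSO, 343 expected and 33 found, at a -log10 q of 392 and 21.7. Its width was 912 bp in DMSO and 792 bp at 30 h, and both neighbouring DMSO regions were kept. A region on chromosome 4 from 133434877 to 133435639 had a pileup of 414 in DMSO, 334 expected and 38 found.

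Kept regions next to lost ones stood lower. Among strong pairs with no lost region on either side along the chromosome, 10.8% had a pileup below 0.5 of that expected (10.2 to 11.4%). With 1 lost neighbour the share was 17.7% (16.8 to 18.8%) and with lost neighbours on both sides 28.1% (25.5 to 30.9%). The median expected pileups of these 3 sets were 227, 228 and 228, and their median gaps 6301, 6799 and 7139 bp. In the most crowded quartile of gaps the shares were 8.77%, 15.4% and 29.9%, and in the most isolated 11.1%, 18.7% and 25.8%. Of the 1088 pairs with lost neighbours on both sides, the bin of ratios from 0.4 to 0.5 held 120 (11.0%). The bins beside it held 95 and 90. From 0.6 to 0.7 there were 78 (7.17%) and from 0.9 to 1.0 128 (11.8%). The low peak is thus a single bin, seen without a test, and whether the ratios form 2 humps was not tested. With 1 lost neighbour no dip was seen, with 7.06%, 7.37% and 14.1% in the bins from 0.4, 0.6 and 0.9. With no lost neighbour these bins held 4.78%, 7.36% and 14.6%.

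**Figure D4:**
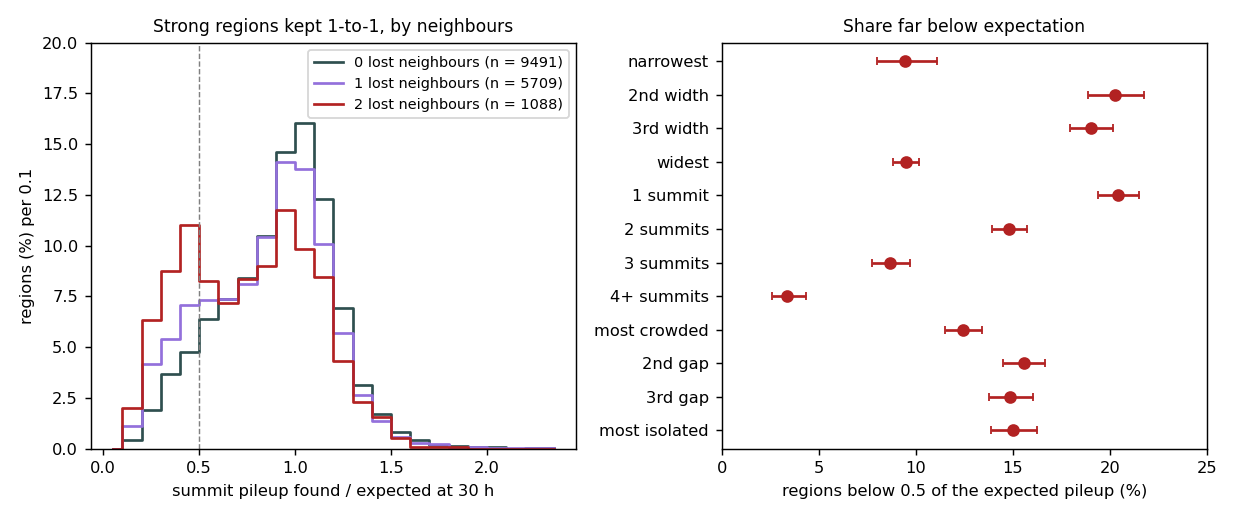
Left, share of kept regions with an expected pileup of at least 128 (y axis, percent per bin of 0.1) by found over expected 30 h pileup (x axis), for regions with 0, 1 or 2 lost neighbours; the dashed line is at 0.5. Right, share below 0.5 (x axis, percent with 95% Wilson intervals) by width quartile, summit number and gap quartile. Below 0.5 lie 28.1% of the regions with 2 lost neighbours, against 10.8% of those with no lost neighbour.

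Lost regions also followed each other. A DMSO region was lost in 30.6% of cases where the region before it on the chromosome was lost (29.7 to 31.5%) and in 24.5% where that region was kept (24.0 to 24.9%). Within 2 kb the shares were 31.2% and 22.3%, and at gaps over 50 kb 33.8% and 28.0%. At an expected pileup of 32 to 64 they were 55.8% and 48.8%, and from 128 to 256 8.17% (7.18 to 9.29%) and 6.93% (6.40 to 7.50%), where the intervals overlap. For new 30 h regions within 2 kb of the region before, 19.8% were new after a new region (16.9 to 23.0%) and 15.2% after a shared one (14.0 to 16.4%).

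Of the 11027 lost regions 5434 (49.3%) stood alone between kept regions, and 2601 (23.6%) lay in 725 runs of at least 3 with no kept region between them. The longest runs held 9 lost regions. One spanned 958 kb on chromosome 17 from 49571395 to 50529346, with -log10 q from 0.642 to 350. Another covered 730 kb on chromosome 2 from 114496464 to 115226325, where the weakest region had a -log10 q of 30.9 and the strongest 148. Runs of 9 also lay on chromosome 16 from 79591089 to 82392321, over 2801 kb, and on chromosome 15 from 69244122 to 70776352, over 1532 kb. A run of 8 on chromosome 13 from 16105912 to 16725957 had -log10 q between 53.0 and 184. New regions formed 231 runs of at least 3, and the longest held 6. The strongest of these covered 132 kb on chromosome 16 from 26316288 to 26448226, with -log10 q between 26.0 and 86.4.

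A lost region had a new region within 2 kb in 284 cases (2.58%), and a new region had a lost region within 2 kb in 285 (4.13%). These shares are to be read beside the few regions of either class that had any region of the other list so close, given next, and nothing is read from them on whether lost and new regions avoid each other. The nearest 30 h region of any kind was 10554 bp away at the median for lost regions, and the nearest DMSO region 9917 bp for new ones. Within 2 kb of a region of the other list lay 16.5% of lost and 18.0% of new regions, and beyond 100 kb 6.86% and 6.01%. Lost regions within 2 kb of a 30 h region had medians of 6.06 for fold enrichment and 419 bp for width, where the others had 10.8 and 557 bp, but their median -log10 q was close, at 39.2 and 42.3. Over all DMSO regions within 1 kb of another DMSO region, lost or kept, the median fold enrichment was 8.62. That set uses another distance and another list, so nothing is read from setting it beside the 6.06.

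Spacing gave different orders by different measures of strength. Unsorted, the share lost was flat at 24.7 to 27.0% in bins of gap up to 50 kb, and then 29.1% from 50 to 100 kb and 36.4% beyond (33.8 to 39.1%). Regions beyond 100 kb had a median pileup of 81, against 159 for those within 1 kb. Within quartiles of fold enrichment the most crowded regions were lost least, with 16.3% in the most crowded and 45.7% in the most isolated gap quartile of the second fold enrichment quartile. Within bins of expected pileup they were lost most, with 34.3% (32.8 to 35.9%) and 22.7% (21.2 to 24.4%) from 64 to 128, and 10.9% and 4.46% from 128 to 256. Crowded regions had a lower fold enrichment at a higher pileup, at medians of 8.73 in the most crowded and 15.4 in the most isolated quartile. No order by spacing therefore held over all 3 ways of counting.

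Sparse stretches of the genome had larger shares of lost regions. In windows of 1 Mb with fewer than 5 DMSO regions 37.8% were lost (34.7 to 40.9%) and 26.7% of 30 h regions were new (23.8 to 29.8%). The shares were lower with each step in density, to 21.8% lost (21.0 to 22.6%) and 14.5% new (13.9 to 15.3%) in windows with at least 40. The median pileup of DMSO regions was 90 in the sparsest and 147 in the densest windows, and its part in the shares was not tested. Windows were divided by their DMSO regions, and a 30 h region counts as new where no DMSO region overlaps it, so the share new is partly set by the division. Of 915 windows that held 20 or more DMSO regions, 644 had more lost than new regions, 209 more new than lost, and 62 equal numbers. A single one of these windows had no lost region, on chromosome 1 from 191000001 to 192000000 with 21 regions. The windows on chromosome 9 from 20000001 to 21000000 and chromosome 8 from 72000001 to 73000000 had 1 lost of 34 and 33, with 5 and 9 new.

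By chromosome, the share of new regions covered a smaller range than the share lost. New regions made up 15.2% on chromosome 17 (13.5 to 17.0%) and 16.2% on chromosome 12, the lowest values, and 19.8% on chromosome 16 (17.8 to 22.0%) and 19.7% on chromosome 15, the highest. Chromosome X, with 29.5% lost, had 17.4% new, and chromosome 7, with 22.9% lost, had 18.2% new. Strength was not held equal between chromosomes. The median -log10 q of DMSO regions was 83.1 on chromosome X and 97.9 on chromosome 7, and its part in the shares was not tested. The number of 30 h regions per 100 DMSO regions was lowest on chromosomes X and 14, at 85.5 and 85.8, and highest on chromosomes 7 and 19, at 95.1 and 94.6. The median width ratio of kept pairs lay between 0.945 on chromosome 12 and 0.962 on chromosome 17. Among strong pairs, the share below 0.5 of the expected pileup was lowest on chromosomes 19 and 11, at 10.9% each, and highest on chromosome 18, at 19.1% (15.6 to 23.1%).

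**Figure D5:**
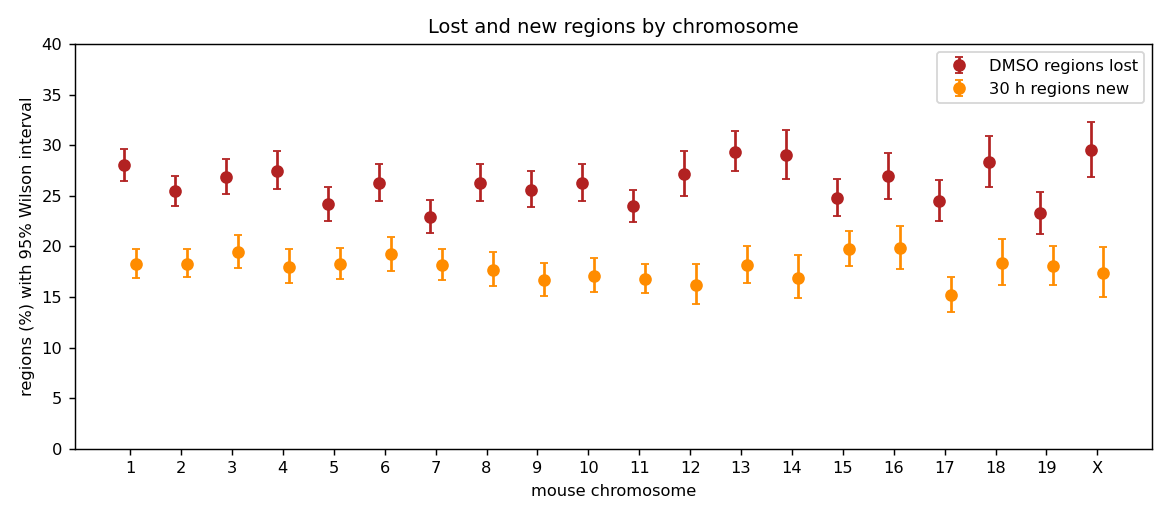
Share of DMSO regions lost and of 30 h regions new (y axis, percent with 95% Wilson intervals) on each mouse chromosome (x axis). The share lost runs from 22.9% on chromosome 7 to 29.5% on chromosome X, and the share new from 15.2% on chromosome 17 to 19.8% on chromosome 16.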

How the data were processed

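Per the labels, each deposited list was made by the authors from both replicates of a group, and per the submitters' processing notes peaks were called with MACS2 2.1.2 on mm9. The aligner, read filters, transposase shift and caller options are not given in the sources used here. The authors deposited a score (540 to 1000), a fold enrichment ratio, a -log10 p and a -log10 q per entry, and the summit position. The lists are on a build other than GRCm38, since the last region on chromosome 1 ends at 197059327 and the last GRCm38 gene at 195291439.

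With Python 3.11.15, overlapping entries were merged, keeping the highest value of each measure. Widths and gaps were cut at quartiles of each list. Summit pileups were solved from the fold enrichment and -log10 p, assuming MACS2's default pseudocount of 1 and a Poisson p, and matched 100% of entries within 0.001. The steps were tested on simulated data and against bedtools 2.31.1. No p-value was computed, as there was 1 list per group. The regions named were the 5 highest lost and new by fold enrichment, -log10 q, width and summit number, the 5 most narrowed and widened pairs, and the 5 longest runs, splits and joins, of which some are printed. These rules and the comparison itself were chosen with earlier results of these data known. The analysis of found over expected pileup, neighbours and 1 Mb density was chosen after seeing the data. The 6 h list was not used. Alternatives were an overlap of 50%, the summit rule, joining at 200 bp, unmerged entries, a score of 1000, a -log10 q of at least 10 and lists of equal length.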

Additional observations from a re-analysis of the deposited data

How the results depend on the processing

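Each list pools its replicates, so how far 2 DMSO lists would differ is not known, and at expected pileups below 32, where 72.4% were lost, no order by width was detectable. Values are given in the order share lost, share new, median width ratio of kept pairs, widest minus narrowest quartile lost, regions with 3 or more summits minus those with 1, and most isolated minus most crowded quartile, the differences in percentage points. As reported they were 26.1%, 17.9%, 0.951, -36.3, -26.6 and 3.30. With an overlap of at least 50% they were 27.9%, 18.5%, 0.956, -32.9 and -23.6. With every entry counted the shares were 20.6% and 13.0%, the ratio 0.933 and the last difference 31.0. Entries of 1 region overlap each other and so count as most crowded there. This last value therefore sets regions of several summits against others and does not measure spacing between regions. The ratio of 0.933 likewise covers only the 10758 pairs with 1 summit in both lists, against 30463 pairs in the reported value. With a score of 1000 in both lists they were 29.7%, 12.2%, 0.958 and, for spacing, 0.631 (-0.850 to 2.11), so that the spacing difference could no longer be told from 0. With that score only in the list asked about, an alternative chosen after seeing the data, they were 14.1%, 4.62%, 0.944, -19.1 and -15.3. With lists of equal length they were 21.7%, 21.0%, 0.949, -28.7 and -22.2, where equal lengths make lost and new nearly equal in number by construction. With -log10 q of at least 10 the summit difference was -30.4. Among regions whose expected pileup reached the 30 h median 7.88% were lost. Except where the alternative's construction shows it, the cause was not tested. No value changed sign, though that interval includes 0. The other 24 values stayed within the 95% interval of the reported one, among them every value under the summit rule and under joining at 200 bp. No paired analysis was possible because each group has a single list with no values per replicate, so single replicates could not be left out either.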
